A study of Mus musculus with 22 samples.

Results

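The genes described here encode the high mobility group (HMG) proteins and the heterochromatin protein 1 (HP1) proteins of the mouse. The 10 members were taken from the count table by their symbols, out of 23453 symbols in all: Hmgb1, Hmgb2, Hmgb3, Hmgn1, Hmgn2, Hmgn3, Hmga1, Cbx1, Cbx3 and Cbx5. They were followed in 22 single astrocytes whose calcium response to ethanol (EtOH) had been recorded before each cell was drawn into a pipette. The cells came from primary cultures of the cortex of C57BL/6 pups aged P0 to P1, and all 4 groups share this strain, the EtOH exposure, removal of serum for 24 h and a 12 h exposure to cytosine arabinoside, a drug that kills dividing cells. S-type cells (n = 6) gave a sustained calcium signal, T-type cells (n = 6) a transient one, M-type cells (n = 5) a mixture of patterns, and NR cells (n = 5) no response. Cells carry here their type and their number in order of deposition, for example T-type cell 2, and these numbers pair nothing between types.

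HMG proteins are small, abundant proteins that bend DNA or loosen nucleosomes. HMGB proteins bend DNA through their HMG boxes, HMGN proteins bind the nucleosome itself and compete with linker histone H1, and HMGA proteins hold AT-rich DNA through AT hooks. HP1 proteins read methylated lysine on the tail of histone H3 through a chromodomain, dimerise through a chromoshadow domain and recruit the proteins that keep heterochromatin closed. Cbx5 encodes HP1α, Cbx1 encodes HP1β and Cbx3 encodes HP1γ. HMGB1 is also released from stressed or dying cells and is then sensed by RAGE and Toll-like receptors, which has drawn attention to it in glia exposed to alcohol.

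Reads per cell ran from 2937786 in T-type cell 3 to 22131076 in M-type cell 5. Counts were divided by a size factor, and the result is called the normalized count. T-type cells had size factors of 0.183 to 1.56, against 0.923 to 2.31 elsewhere. A level is the mean normalized count over the cells of a type. Differences of 2-fold were common in these cells, so each count of members is set beside the same share over all genes tested. Since neither the labels nor the methods tie a cell to an animal or a culture, each type was treated as 1 sample, no test between types was possible, and the spread over cells and the effect of leaving out 1 cell take its place. Of 12 astrocyte markers, 10 had a read in every cell, and reads of 15 microglial markers made up at most 0.0166% of a cell. Markers of mural cells and fibroblasts reached 0.745% in S-type cell 5 and 0.471% in T-type cell 1, beside 1.66% and 0.83% for astrocyte markers. Neuronal markers reached 0.208% in S-type cell 2, beside 0.481%, and oligodendrocyte lineage markers 0.333% in T-type cell 3, beside 1.28%. Olig1, Acta2 and Map2, listed for oligodendrocyte lineage, mural cells and neurons, also had a read in every cell. The part of these reads in the levels below was not tested. The members together held 0.0829% to 0.674% of the reads of a cell, with a median of 0.146%.

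The promoters of Hmgb2 and Hmgb3 are shown because they hold the CHR element described next, and that of Hmgn2 because this gene followed cell cycle reads most closely of the members. Genes that peak in late cell cycle often carry the CHR element (TTTGAA) near CCAAT boxes. The windows run from 250 bases before to 50 bases after the RefSeq start on GRCm38.p6, 5′ to 3′ on the strand of the gene, with TTTGAA and CCAAT in capitals on either strand (TTCAAA and ATTGG are their reverse forms). They lie at chr8:57511593-57511892 on the + strand for Hmgb2, at chrX:71555667-71555966 on the + strand for Hmgb3 and at chr4:133967942-133968241 on the - strand for Hmgn2.
Hmgb2: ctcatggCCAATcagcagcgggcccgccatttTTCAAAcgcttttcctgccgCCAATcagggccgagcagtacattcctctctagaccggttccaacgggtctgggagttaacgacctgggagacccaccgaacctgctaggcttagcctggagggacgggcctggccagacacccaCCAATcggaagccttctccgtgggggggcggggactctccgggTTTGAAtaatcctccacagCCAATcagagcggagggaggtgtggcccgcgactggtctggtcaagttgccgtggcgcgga
Hmgb3: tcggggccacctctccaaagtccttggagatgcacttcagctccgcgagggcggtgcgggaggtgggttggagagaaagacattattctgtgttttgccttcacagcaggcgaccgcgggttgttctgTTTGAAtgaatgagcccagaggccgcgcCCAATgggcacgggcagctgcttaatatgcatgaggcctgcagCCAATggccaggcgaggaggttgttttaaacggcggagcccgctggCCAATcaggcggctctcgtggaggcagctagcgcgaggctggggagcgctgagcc
Hmgn2: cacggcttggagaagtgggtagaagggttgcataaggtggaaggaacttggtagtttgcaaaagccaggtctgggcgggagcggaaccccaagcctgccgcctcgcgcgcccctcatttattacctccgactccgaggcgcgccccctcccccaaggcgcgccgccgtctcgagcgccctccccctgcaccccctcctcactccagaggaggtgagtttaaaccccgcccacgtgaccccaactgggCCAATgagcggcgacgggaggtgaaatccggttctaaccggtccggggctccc

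The Hmgb2 window held 2 CHR elements and 4 CCAAT boxes, the Hmgb3 window 1 and 3, and the Hmgn2 window 0 and 1. Of 32851 RefSeq promoter windows of the same length, 17.9% held TTTGAA, 37.4% held CCAAT and 6.95% held both. TTTGAA was found in no other member window of the 9 members with an entry. The E2F motif TTTGGCGC was found in 1 of the Cbx3 windows, against 0.514% of all windows, and TTTCCCGC in none, against 1.07%. These matches describe letters, not bound sites.

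To compare levels of different genes, reads were divided by the merged exon length of each gene in GENCODE vM21. The amplification favours the 3′ end, so reads need not rise in step with length. Merged exon length also exceeds the longest coding transcript by unlike amounts. These lengths were 5992 and 1889 bases for Cbx3, 5023 and 2838 for Hmgb1 and 3060 and 1265 for Hmgn2. They were 2234 and 1743 for Hmgb3 and 9006 and 8803 for Cbx5. The order below carries these limits. By the median over 22 cells, Hmgn1 stood first at 3536 normalized counts per kb, followed by Hmgn3 at 1114, Hmgb3 at 264, Cbx5 at 184, Hmgb1 below it, Hmgn2 at 116, Hmgb2 at 34.3, Cbx1 at 17.5 and Cbx3 at 5.86. Hmgn1 exceeded Hmgn3 in 20 of 22 cells, Hmgn3 exceeded Hmgb3 in 21, and Hmgn2 exceeded Hmgb2 in 20. The middle of the order was not resolved between cells: Hmgb3 exceeded Cbx5 in 13 of 22 cells, Cbx5 exceeded Hmgb1 in 14, and Hmgb1 exceeded Hmgn2 in 11. Hmgb2 exceeded Cbx1 and Cbx1 exceeded Cbx3 in 14 cells each. Hmgn1 also varied least from cell to cell, with a coefficient of variation of 0.762, against 3.08 for Cbx5 and 2.88 for Hmgb1.

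Hmga1, at chr17:27556497-27563674, had 0 reads in all 22 cells, which allows up to about 3 expected reads over the 22 cells together. Only uniquely aligned reads were counted, and 64.3% of the 75-base windows of the longest Hmga1 coding transcript are also found, letter for letter, in Hmga1b (chr11:120762794-120764419, a gene of 1 exon). The same kind of sharing covered 55.9% of Hmgn2 windows with 11 other genes, 32.6% of Hmgb1 windows with 84 other genes (83 of them annotated as pseudogenes), 24.7% of Hmgb3, 22.2% of Cbx3, 20.8% of Hmgb2 and 4.05% of Hmgn1 windows. Hmgn3, Cbx1 and Cbx5 shared none. The levels of the sharing genes may therefore be undercounted relative to the others, to an extent that was not tested, and the order given above carries that limit. The other 9 members had reads, and all 9 passed the filter, which asked for reads in 5 cells or more. No single type decided this, since each of the 9 had reads in at least 18 of the 22 cells.

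**Figure D1:**
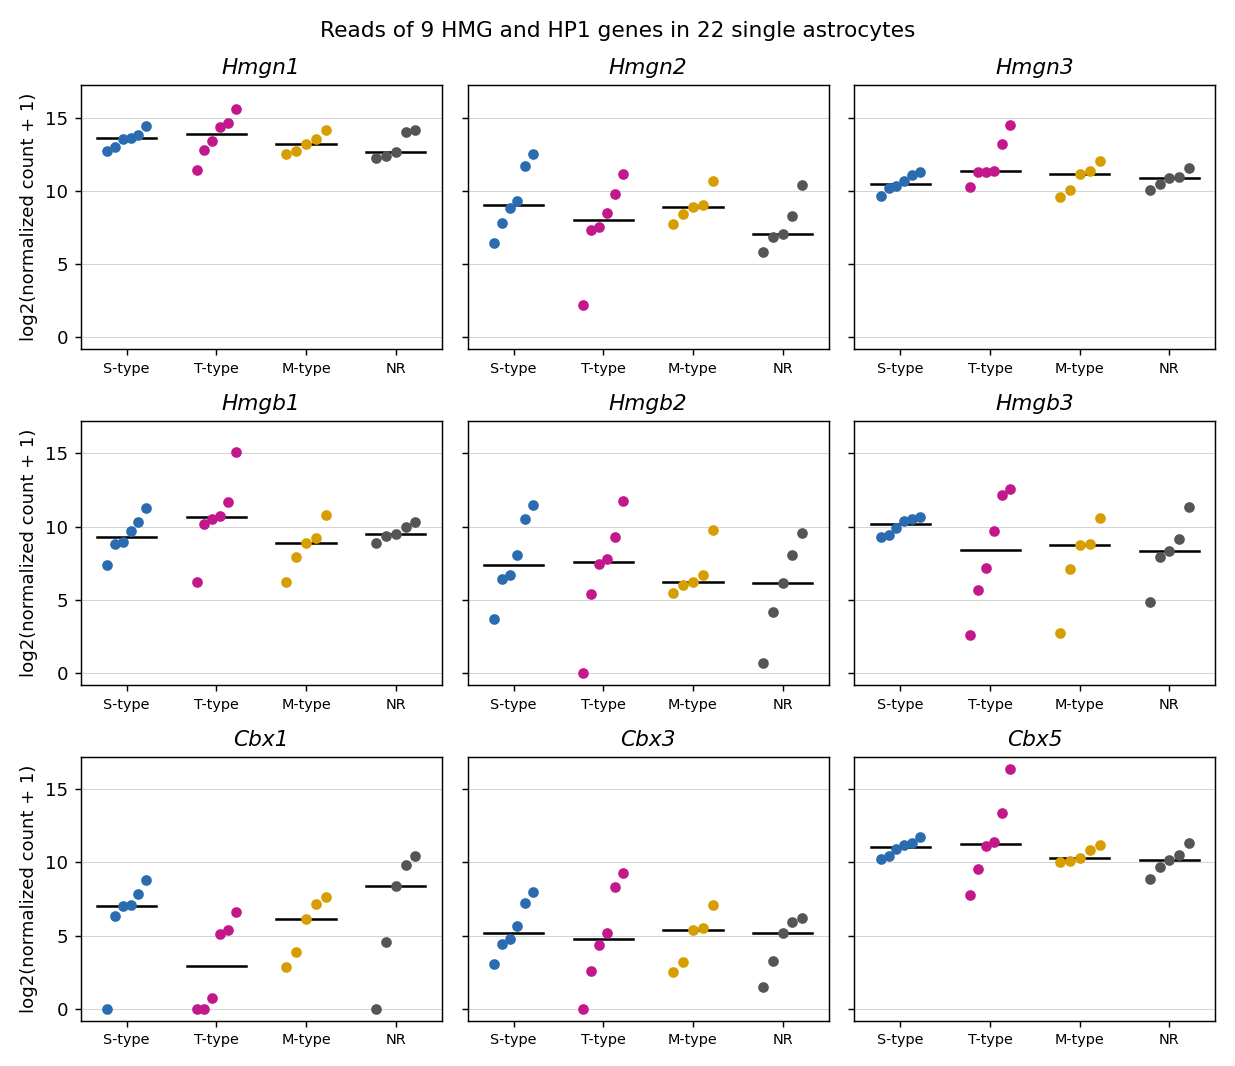
Each panel shows 1 gene, with a point for each of the 22 cells on the log2(normalized count + 1) axis and a black line at the median of each type. Hmgn1 was high in every cell, whereas Cbx5 and Hmgb1 each had 1 T-type cell far above the others, at 86970 and 34830 normalized counts.

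In T-type versus S-type cells, 4 of the 9 members were at least 2-fold higher and 2 at least 2-fold lower, where 25.7% of all 12517 genes tested were higher, 32.5% lower and 58.2% past 2-fold in either direction. The higher ones were Cbx5, Hmgb1, Hmgn3 and Cbx3, and the lower ones Cbx1 and Hmgn2. The median log2 ratio of the members was 0.80, against -0.09 over all genes. Without T-type cell 1 and T-type cell 2, the number of higher members fell to 1 (Hmgb1, at a log2 ratio of 1.00), and the number of lower members became 3. For no member did the cells of the 2 types separate without overlap, which was so for 0.783% of all genes in either direction.

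The contrasts with NR share the same 5 NR cells and are given side by side. Against NR, T-type had 6 members higher and 1 lower, where 28.4% and 32.8% of all genes were and 61.2% passed 2-fold in either direction. S-type had 3 higher and 1 lower, where 25.1% and 22.5% of all genes were and 47.6% passed in either direction. M-type had 0 higher and 1 lower, where 19.8% and 28.1% of all genes were and 47.9% passed in either direction. The median log2 ratio of the members was 1.75 for T-type, 0.55 for S-type and 0.05 for M-type, against -0.07, 0.03 and -0.20 over all genes. When reads were scaled by library size (mean CPM) in place of size factors, T-type versus NR had 3 members higher and 1 lower, and the shares over all genes became 19.2% and 38.2%. Without T-type cells 1 and 2, 3 members were higher in T-type, and without S-type cells 1 and 2, 0 were higher in S-type. No member separated the cells of a type from the NR cells without overlap. Cells of the types did not overlap for 1.01% of all genes in T-type, 0.412% in S-type and 0.602% in M-type.

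**Figure D2:**
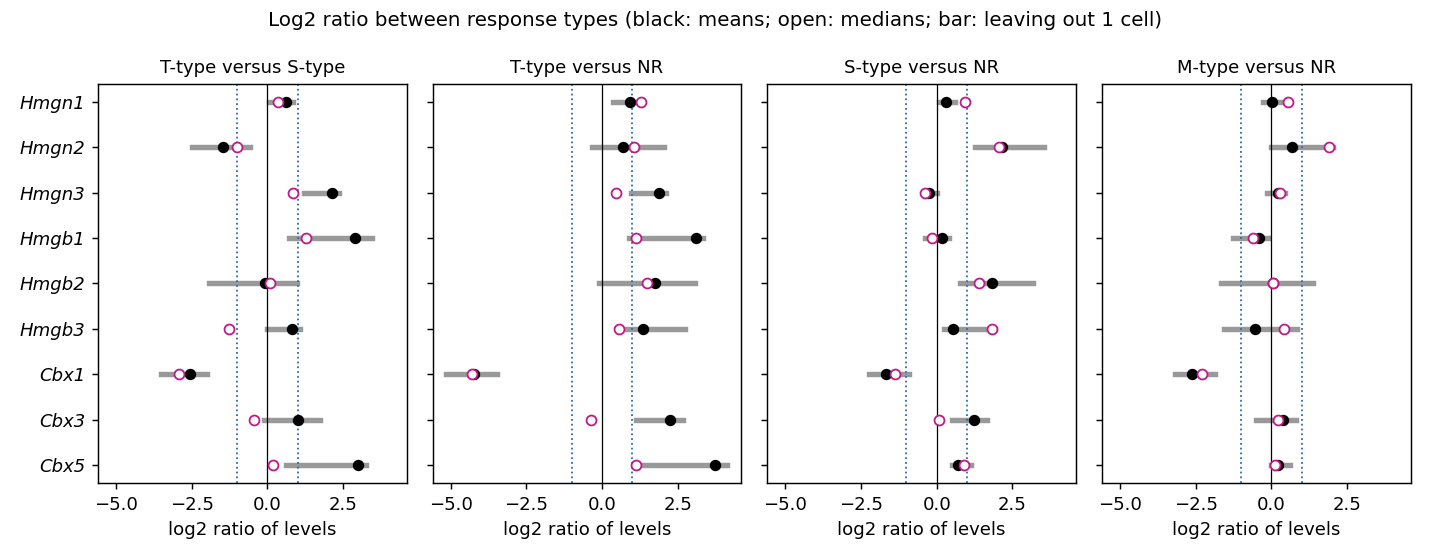
Black points give the log2 ratio of mean levels for each member and contrast, open points the log2 ratio of the medians, and grey bars the range when each cell is left out in turn. Dotted lines mark a 2-fold difference. Cbx1 lay below -1 in T-type versus S-type with and without any single cell, between -3.51 and -2.0, whereas the bar of Cbx5 reached down to 0.60 and that of Hmgb1 to 0.70.

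Among the HMGN genes, Hmgn1 (chr16:96120618-96127729) had the steadiest level. HMGN1 loosens chromatin at enhancers and promoters and takes part in DNA repair. S-type cells held 6647 to 22160 normalized counts (median 12260) and T-type cells 2765 to 49880 (median 15700). M-type cells held 5913, 6666, 9503, 11920 and 18320, and NR cells 4794, 5227, 6452, 16500 and 18260. All ranges overlapped, and none of the contrasts reached 2-fold in mean levels. The log2 ratio was 0.61 between T-type and S-type, and against NR 0.92 in T-type, 0.30 in S-type and 0.03 in M-type. The medians gave 0.36, 1.28, 0.93 and 0.56 in the same order, so T-type versus NR passed 2-fold by medians. Leaving out 1 cell moved its ratio of means between 0.37 and 1.23. The NR cells fell into a lower set of 3 and a higher pair, NR cells 4 and 5.

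Hmgn3 (chr9:83109948-83146685) encodes an HMGN protein best known from endocrine and neural tissue, where it supports the expression of single target genes. It had 805 to 2454 normalized counts in S-type (median 1430) and 1250 to 23110 in T-type (median 2565). Of the 6 T-type cells 5 lay above every S-type cell, although 3 of them, at 2476, 2514 and 2616, did so narrowly. This count depended on the size factors: in CPM, T-type cell 3 was at 154.5, below S-type cell 4 at 201.9. The log2 ratio of T-type versus S-type was 2.13 (95% interval 2.10 to 2.16, counting error only), and it was 1.22 without T-type cell 2 and 0.49 without both T-type cells 1 and 2. NR cells held 1068, 1392, 1866, 2000 and 3034, and M-type cells 766, 1043, 2271, 2645 and 4210. Against NR the log2 ratio was 1.88 in T-type (0.97 without T-type cell 2, and 0.46 for the medians), -0.25 in S-type and 0.23 in M-type. With mean CPM the log2 ratio was 1.01 for T-type versus S-type and 0.78 for T-type versus NR. Exons of Hmgn3 share 255 bases, 13.6% of its exon length, with Gm29054 on the other strand, and whether the counting used the strand is not stated.

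Hmgn2 (chr4:133964738-133968650) encodes a close relative of HMGN1 that is widely expressed in progenitor and dividing cells. Its S-type cells ran from 86.8 to 5959 normalized counts with a median of 542, and its T-type cells from 3.63 (1 read, in T-type cell 2) to 2273 with a median of 270.3. M-type cells held 207, 346, 483, 533 and 1608, and NR cells 55.9, 115, 129, 315 and 1369. S-type cells 1 and 2 stood apart at 5959 and 3353, and the other 4 S-type cells ran from 86.8 to 640.1, within the NR range. The log2 ratio of S-type versus NR was 2.17 and became -0.19 without S-type cells 1 and 2. That of T-type versus S-type was -1.48 and became 0.88 without them, and -0.57 without S-type cell 1 alone. These 2 cells also had the largest shares of reads on cell cycle genes, as described below, and the part of the cell cycle in the difference was not tested.

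Among the HMGB genes, Hmgb1 (chr5:149046702-149184489) encodes the DNA-bending protein that doubles as an extracellular alarm signal. It had 163.2 to 2469 normalized counts in S-type (median 660.4) and 73.2 to 34830 in T-type (median 1593). M-type cells held 72.6, 246, 478, 589 and 1792, and NR cells 469, 642, 733, 1027 and 1289. T-type cell 2 alone supplied 82.0% of the T-type level, and the next cell, T-type cell 5, was at 3242. In CPM these 2 cells were nearer, at 764.5 and 259.5. T-type cell 1 was below every S-type and NR cell, while 4 T-type cells exceeded every NR cell. The log2 ratio was 2.91 for T-type versus S-type (95% interval 2.87 to 2.95, counting error only), and against NR it was 3.09. Without T-type cell 2 these were 0.70 and 0.88, and the ratios of the medians were 1.27 and 1.12. With mean CPM the log2 ratios were 1.67 and 1.69 in the same order. S-type and M-type differed from NR by 0.18 and -0.39 on the log2 scale.

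T-type cell 2 had reads in 6319 genes, the fewest of all 22 cells, and a size factor of 0.276 with 12564138 reads. It was the highest T-type cell for Hmgb1, Hmgb2, Hmgb3, Hmgn3 and Cbx3, with 76.8% of the T-type level of Hmgb2, 52.5% of Hmgb3, 55.7% of Hmgn3 and 61.8% of Cbx3. It had the lowest Hmgn2 of all cells and no Cbx1 read. Across the 22 cells, log2 Hmgb1 and Hmgn3 correlated with the number of genes with a read at r = -0.48 (rho = -0.38) and r = -0.66 (rho = -0.60), a description in which the same libraries give both measures.

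Hmgb2 (chr8:57511907-57515999) encodes the HMGB protein of proliferating cells. S-type cells held 12.2 to 2879 normalized counts (median 184.5) and T-type cells 0 to 3453 (median 196). M-type cells held 43.2, 63.8, 73.7, 104 and 873, and NR cells 0.607, 17.3, 70.5, 265 and 764. Each type thus had 1 or 2 high cells over a low remainder. The log2 ratio of S-type versus NR was 1.84, and it became 0.77 without S-type cell 1, at 2879, and -0.95 when S-type cell 2, at 1444, was left out too. That of T-type versus NR was 1.75 and became -0.10 without T-type cell 2, and T-type versus S-type was -0.09. The last value was not stable: it was -1.93 without T-type cell 2, 2.69 without S-type cells 1 and 2, -1.20 with CPM of pooled reads and -1.08 with mean CPM.

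Hmgb3 (chrX:71555918-71560676) encodes the HMGB protein of progenitor cells and was the most read Hmgb gene in 13 of 22 cells per length, although in 8 by reads not divided by length, where Hmgb1 led in 12. S-type cells were close together, from 621 to 1585 normalized counts (median 1164), and T-type cells ran from 5.12 to 6082 (median 484). M-type cells held 5.63, 134, 435, 445 and 1572, and NR cells 27.8, 242, 328, 559 and 2632. In all, 3 T-type cells lay below every S-type cell and 2 above every one. The mean and the median accordingly went opposite ways in T-type versus S-type, with log2 ratios of 0.80 and -1.27. T-type versus NR was 1.35, and 0.54 without T-type cell 2.

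The genes through which HMGB1 is sensed were mostly scarce. Of 10 such genes 7 could be compared in T-type versus S-type, with 3 at least 2-fold higher and 2 lower, beside 25.7% and 32.5% of all genes, and a median log2 ratio of 0.22. Of the higher ones, Cxcr4 went from 1.80 to -1.40 without T-type cell 2. Havcr2, named because its values were seen, went from 3.59 to -1.80 without T-type cell 4. Of the lower ones, Tlr2 was at 45.4 in S-type but at 0.314 without S-type cell 1, and at 0.469 in T-type. Cd24a, which encodes a surface protein that dampens the response to HMGB1, had the most reads and a read in every cell. Its level was 5030 in T-type and 2154 in S-type, a log2 ratio of 1.22, or 0.58 to 1.46 when 1 cell was left out. Tlr4, the Toll-like receptor for HMGB1 and endotoxin, was at 101 in S-type, 148 in M-type and 141 in NR, and at 1.17 in T-type, where 1 of 6 cells had reads. In the other types 4 cells each had Tlr4 reads, and without the highest cell of each type the levels were 11.5 in S-type, 99.9 in M-type and 50.8 in NR. Ager, which encodes RAGE, had reads in 1 of the 22 cells.

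Among the HP1 genes, Cbx5 (chr15:103191544-103239816) was the most read per length in 20 of 22 cells. It had 1179 to 3430 normalized counts in S-type (median 2151) and 218 to 86970 in T-type (median 2469). M-type cells held 1056, 1081, 1248, 1817 and 2377, and NR cells 462, 843, 1144, 1488 and 2572. T-type cell 1, with 61791 Cbx5 reads, supplied 84.2% of the T-type level, and T-type cell 5 followed at 10410. As for Hmgb3, cells lay on both sides, with 2 T-type cells above every S-type cell and 2 below every one. The log2 ratio of T-type versus S-type was 3.00 (95% interval 2.98 to 3.03, counting error only), 0.60 without T-type cell 1 and 0.20 for the medians. That of T-type versus NR was 3.73, and 1.32 without T-type cell 1, and S-type and M-type versus NR were 0.72 and 0.22. T-type cell 1 had 15555483 reads and a size factor of 0.71, and its other members were not uniformly high: it was first of all cells for Hmgn1 but 21st for Hmgb1.

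Cbx1 (chr11:96789127-96808640) went the other way and was the member whose 2-fold call held most widely. It had 0 to 444 normalized counts in S-type (median 131) and 0 to 97.2 in T-type (median 17.2). M-type cells held 6.30, 14.0, 68.5, 145 and 198, and NR cells 0, 22.3, 338, 906 and 1411. No Cbx1 read was found in 2 T-type cells, 1 S-type cell and 1 NR cell, and another T-type cell had 1 read. The log2 ratio of T-type to S-type was -2.57 (95% interval -2.79 to -2.35, counting error only). Against NR it was -4.23 in T-type, -1.66 in S-type and -2.63 in M-type. Leaving out any 1 cell kept the first between -3.51 and -2.0, the second between -5.17 and -3.47, the third between -2.23 and -0.90 (the latter without NR cell 5) and the fourth between -3.20 and -1.87. The NR level rested on 3 cells, and NR cells 1 and 3, at 0 and 22.3, lay within the T-type range. Across the 22 cells log2 Cbx1 correlated with the number of genes with a read at r = 0.45 (rho = 0.33) and with the log2 size factor at r = 0.45 (rho = 0.30), and the lowest values of both, 6319 genes and a size factor of 0.183, were in T-type cells. Their part in the lower T-type level was not tested.

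Cbx3 (chr6:51470360-51483704), whose HP1γ protein is also found along transcribed genes, was the least read member with any reads. It had 7.42 to 248 normalized counts in S-type (median 37.3) and 0 to 624 in T-type (median 27.4). M-type cells held 4.69, 8.40, 41.5, 44.9 and 133, and NR cells 1.85, 8.63, 35.2, 61.0 and 71.5. The medians of the 4 types were close, between 27.4 and 41.5. The log2 ratio of the means was 1.01 between T-type and S-type, and against NR it was 2.24 in T-type and 1.23 in S-type. The medians gave -0.45, -0.36 and 0.08 in the same order. The first became -0.12 without T-type cell 2, and the third became 0.52 without S-type cell 1 and -0.47 without S-type cells 1 and 2.

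The make-up of the HP1 transcripts, per length, followed from these levels. Cbx5 made up a median of 85.7% of HP1 reads per length, Cbx1 4.37% and Cbx3 1.60%. The mean share of Cbx1 was 34.8% ± 35.4 in NR, 12.8% ± 10.1 in S-type, 10.4% ± 10.7 in M-type and 0.776% ± 1.17 in T-type (SD over 5, 6, 5 and 6 cells). Shares of Cbx1 ran from 0% to 86.5% among NR cells, a spread that took in all other types, with NR cell 5 the only cell in which Cbx1 led. T-type shares of Cbx1 stayed at or below 2.60%. Cbx3 led in T-type cell 2 alone, at 56.1%. Within the HMGN genes Hmgn1 led in 20 cells and Hmgn3 in T-type cells 2 and 4, at medians over all cells of 74.5% for Hmgn1, 22.5% for Hmgn3 and 2.70% for Hmgn2. Within the HMGB genes Hmgb3 led in 13 cells, Hmgb1 in 6 and Hmgb2 in 3 per length, but by reads not divided by length Hmgb1 led in 12, Hmgb3 in 8 and Hmgb2 in 2, so the leading HMGB gene is not settled. Without division by length Cbx5 led in 21 cells and Hmgn1 in 21.

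**Figure D3:**
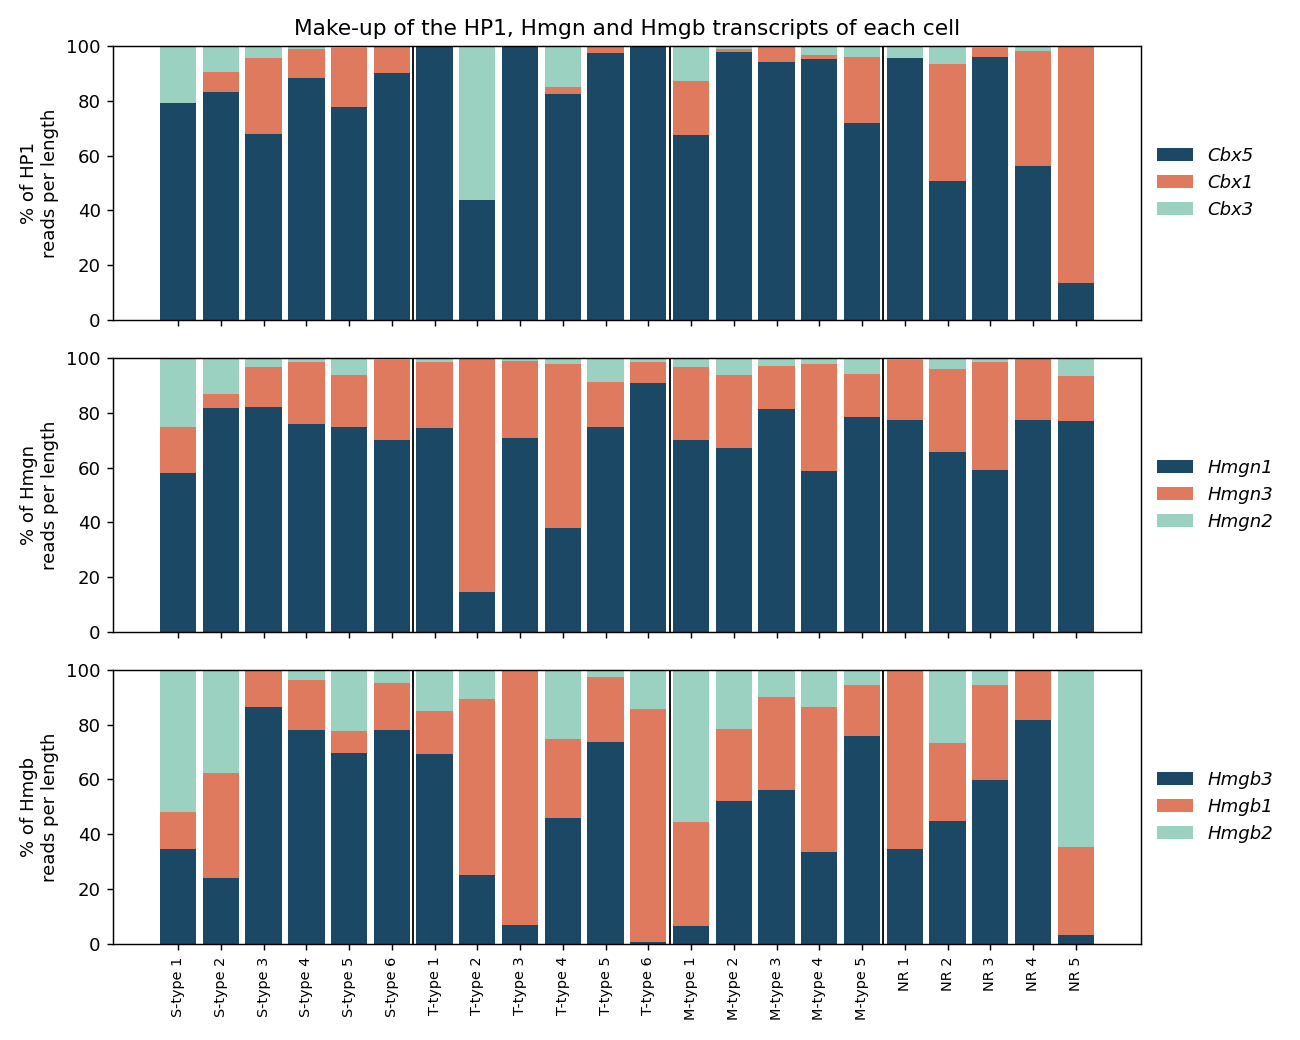
Stacked bars give, for each of the 22 cells, the percentage of the reads per length of a family that came from each gene. The Cbx1 part averages 34.8% in NR cells and is at most 2.60% in any T-type cell, and Hmgn1 holds the largest part of the HMGN bar in 20 of 22 cells.

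Genes that work with HP1 or write and erase the H3K9 methylation it reads gave 4 of 27 at least 2-fold higher and 15 of 27 lower in T-type versus S-type, beside 25.7% and 32.5% of all genes. Their median log2 ratio was -1.43. Cell cycle genes were also lower in this contrast. Of 49 S phase genes 5 were higher and 26 lower, with a median of -1.49, and of 52 G2/M genes 2 and 40, with -3.16. The HP1 list shares Lbr with the G2/M genes and Chaf1b with the S phase genes. Lbr was highest in S-type cell 1 and Incenp in S-type cell 2, the cells with the most cell cycle reads. The part of the cell cycle in these counts was not tested. Against NR, 8 of the 27 were higher and 12 lower in T-type, 10 and 2 in S-type, and 6 and 7 in M-type, beside shares over all genes of 28.4% and 32.8%, 25.1% and 22.5%, and 19.8% and 28.1%. Lrif1, which encodes a nuclear partner of HP1, was at 300.1 in S-type, 811 in M-type and 250.1 in NR, and at 2.39 in T-type, where no cell exceeded 9.07. M-type cell 2 held 3270, and the M-type level was 196.2 without it, below NR. Wiz, a partner of the H3K9 methyltransferases G9a and GLP, went the other way, at 105 in T-type against 9.81 in S-type, a log2 ratio of 3.41 that stayed between 3.12 and 3.75 without any 1 cell. Mis12, a kinetochore protein that binds HP1, was at 5322 in T-type and 466.2 in S-type, but T-type cell 1 held 74.9% of its normalized counts over all cells. Atrx, Adnp and Mphosph8, the most read of the list, had log2 ratios of -1.44, -0.01 and 0.06. Leaving out 1 cell moved that of Adnp between -1.95 (without T-type cell 3, at 13160) and 0.25 and that of Mphosph8 between -0.93 and 0.41.

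In this list the T-type and S-type cells did not overlap for 3 of 27 genes, against 0.783% of all genes: Lrif1, Suv420h2 and Ehmt1, the last of which is named because its values were seen. Suv420h2, which methylates histone H4 at sites bound by HP1, had 1 read over the T-type cells and 989 over the S-type cells, where it ran from 3.55 to 275 normalized counts. Ehmt1, which encodes GLP, had at most 104 normalized counts in a T-type cell and at least 163.8 in an S-type cell, with S-type values up to 1021. All 3 were lower in T-type, whereas the 0.783% counts both directions. Lrif1 had 18 reads over the T-type cells and 2271 over the S-type cells, and Ehmt1 240 and 2960. T-type also held the cell with the fewest reads, 2937786, and the cell with reads in the fewest genes, 6319. Their part in these low values was not tested. Cbx5, Hmgn3, Hmgb1, Lrif1, Wiz, Suv420h2, Ehmt1, and further below Whsc1 and Cox6c, are also among the genes that the study's text names for these types. The study named them from the same cells, so neither their direction nor their likeness here is independent evidence.

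Linker histones, which HMGN proteins compete with on the nucleosome, gave 4 of 6 higher and 1 lower in T-type versus S-type, beside 25.7% and 32.5% of all genes, with a median log2 ratio of 1.83. Of the 4 higher ones, Hist1h1d went from 1.71 to -2.32 and Hist1h1e from 3.83 to -3.33 when 1 cell was left out, T-type cell 5 for the former and T-type cell 3 for the latter, whose remaining T-type cells had no read and were set to the floor of 3 reads. Hist1h1c, the most read by far, was at 4683 in T-type, 6324 in S-type, 8873 in M-type and 9957 in NR. H1f0, the linker histone of resting cells, was at 675 in T-type and 175.8 in S-type, a log2 ratio of 1.94 that stayed between 1.68 and 2.19 without any 1 cell, and at 578 in M-type and 1616 in NR. Among 16 other genes with HMG motifs or HMG names, 1 was higher and 5 were lower in the same contrast, beside the same 25.7% and 32.5% of all genes. Ssrp1, the HMG box subunit of the histone chaperone FACT, was at 6509 in T-type, 9178 in S-type, 2427 in M-type and 1493 in NR. S-type cell 2 held 31610, and without it the S-type level was 4691 and the log2 ratio of T-type versus S-type went from -0.50 to 0.47. Hmgn5, an HMGN protein with a long acidic tail, had a log2 ratio of 3.88 for T-type versus S-type and -1.14 without the cell that held most of its reads. Whsc1, a histone methyltransferase with an HMG box, was lower in T-type, at 293 against 2978, with a log2 ratio of -3.35.

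Reads of S phase and G2/M genes differed widely between cells. S-type cell 1 had 3.23% of its reads on these genes, S-type cell 2 had 2.65% and T-type cell 5 had 1.77%, while the other 19 cells had 0.197% to 0.719%. Hmgn2 ranked in the same order in the first 4 cells: the 4 cells with the largest share had, in the same sequence, the 4 highest Hmgn2 levels. Over the 22 cells log2 Hmgn2 correlated with the log2 share of S phase genes at r = 0.76 (rho = 0.64) and of G2/M genes at r = 0.62 (rho = 0.52). Hmgn1 came next, at r = 0.42 (rho = 0.49) and r = 0.47 (rho = 0.51). For Hmgb2 these were r = 0.31 and 0.40, and its highest cell, T-type cell 2, had a small share of 0.263%. Its 2nd, 3rd and 4th highest cells were S-type cells 1 and 2 and M-type cell 2, which ranked 1st, 2nd and 4th for the share. NR cell 5 had the lowest share of all, 0.197%, and yet ranked 5th for both Hmgn2 and Hmgb2. For Hmgb3, whose promoter also holds a CHR element, r was 0.29 and 0.21, and for Cbx5 0.33 and 0.25. T-type cell 5, 3rd for the share, ranked 2nd for Cbx5, while S-type cells 1 and 2 ranked 13th and 10th. These correlations share library and depth, and none was tested.

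**Figure D4:**
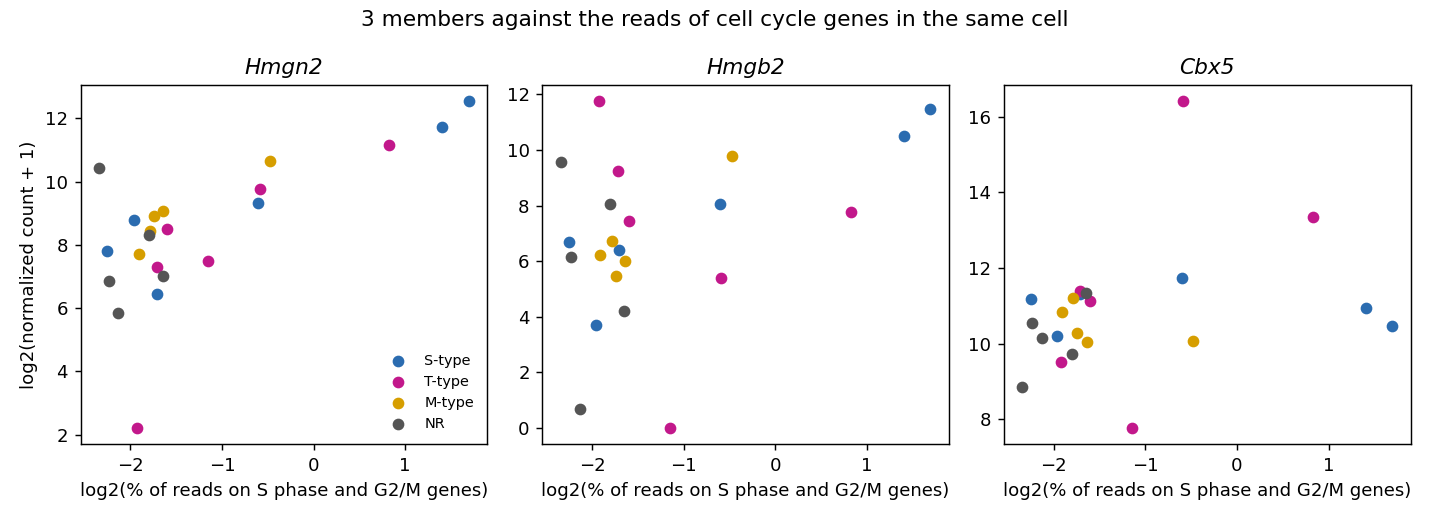
Each point is 1 of 22 cells, with the log2 percentage of its reads on S phase and G2/M genes across and log2(normalized count + 1) of the gene up, coloured by type. Hmgn2 is highest in the 3 cells with the largest share, at 3.23%, 2.65% and 1.77%. The single highest Hmgb2 and Cbx5 cells lie elsewhere, but S-type cells 1 and 2 rank 2nd and 3rd for Hmgb2. T-type cell 5 ranks 2nd for Cbx5.

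The members did not move as a block from cell to cell. Of their pairwise correlations of log2 normalized counts the highest was between Hmgn1 and Hmgn2, at r = 0.54 (rho = 0.65, n = 22), and the lowest between Hmgb1 and Cbx1, at r = -0.48 (rho = -0.49). The genes most like each member were sought among 10493 genes read in at least 11 cells, with a mean level of at least 10. Hmgn2 was most like Psma6, a proteasome subunit, at r = 0.84, and Ran, the GTPase of nuclear transport, at 0.82, and these held at 0.79 and 0.73 without the 2 cells farthest from the median. Hmgb1 was most like Hnrnpa2b1, at 0.80, and Zbtb7a, at 0.80, which fell to 0.65 and 0.55 without those cells. Hmgn3 was most like Cox6c, at 0.85, and Sdcbp, at 0.82, which fell to 0.50 and 0.45. Cbx5 was most like Purb, at 0.78, and Mis12, at 0.76, and both were at 0.51 without the 2 farthest cells.

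For the remaining members the 2 nearest genes were Psmd4 (r = 0.86) and Pkig (0.82) for Hmgb2, Orc6 (0.83) and Fads2 (0.81) for Hmgb3, and Gpx4 (0.71) and Gyg (0.67) for Hmgn1. For Cbx1 they were 5031425E22Rik (0.80) and Net1 (0.77), and for Cbx3 Nxt1 (0.81) and Fchsd2 (0.79). Without the 2 cells farthest from the median, r was 0.717 and 0.806 for Hmgb2, 0.798 and 0.65 for Hmgb3, and 0.515 and 0.544 for Hmgn1. It was 0.746 and 0.712 for Cbx1 and 0.827 and 0.644 for Cbx3, each in the order of the genes above. Orc6 encodes a subunit of the origin recognition complex and Nxt1 a factor of mRNA export. Likeness of this kind, picked as the best of 10493 genes over 22 cells, describes these cells only.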

How the data were processed

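RNA of 22 single astrocytes, each a library of its own, was amplified in the study by antisense RNA amplification, which favours the 3′ end of transcripts, and sequenced from stranded libraries. The authors aligned trimmed reads to GRCm38 with STAR and deposited raw counts of uniquely aligned exonic reads per gene symbol, made with VERSE, a modified HTSeq. Versions, and whether counting used the strand, are not given in the sources used here. Without molecular identifiers, amplified copies were counted as reads, and intervals and floors cover counting error only.

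The members, the context lists and the rule for named genes (all members; of a context list the 3 genes with the most reads and the 2 with the largest ratio per direction; the 2 genes most like each member) were chosen with earlier results of these data known. Size factors were medians of ratios over 3670 genes that had reads in all cells. Normalized counts were rounded to 4 significant digits. A level of 0 was set to a floor of 3 reads over the type, genes with at most 3 reads in both types got no ratio, and genes read in under 5 cells were dropped. Called means at least 2-fold. Intervals are exact binomial (Clopper-Pearson) at 95% on the split of reads between 2 types. Total counts ran from 2937786 to 22131076 per cell.

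Positions and exon lengths came from GENCODE vM21 and promoter windows from RefSeq (GRCm38.p6), where 9 of 10 members matched. Exact 75-base windows were compared between annotated transcripts. Since the animal or culture of a cell is not labelled, each type is 1 sample and no p-value, standard error or set test was computed. The study describes cells collected at different times after EtOH. Neither labels nor methods tie a cell to such a time, so it was not used here, and cells of a type may differ in it. The ratio step was tested on simulated data. Alternatives were TMM factors (edgeR 4.0.16, R 4.3.3), CPM of pooled reads, mean CPM, medians, means of log2 values, cells thinned to 2937786 reads, a pseudocount of 1, no filter, a minimum mean level of 10, folds of 1.5 and 4, and leaving out cells. Leaving out T-type cells 1 and 2 together was added after the values were seen. Scripts used Python 3.11.15, NumPy 2.4.6, pandas 2.3.3, SciPy 1.17.1 and matplotlib 3.10.9.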

Additional observations from a re-analysis of the deposited data

Results flagged for a closer look

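Within a type, the cell with the highest normalized count stood clear of the others by Dixon's criterion for 8 of 36 combinations of member and type, or 22.2%. Chance flags about 5% of groups of normally distributed values, which these skewed counts are not, and the criterion flagged 38.8% of 49841 such groups over all genes that passed the filter, a larger share than among the members. In T-type these were Hmgb1 in cell 2 at 34830 (the next cell at 3242), Hmgb2 in cell 2 at 3453 (next 611) and Cbx5 in cell 1 at 86970 (next 10410). In M-type, cell 2 stood out for 3 members, Hmgb2 at 873 (next 104), Hmgb3 at 1572 (next 445) and Hmgn2 at 1608 (next 533). This M-type cell had the fourth-largest share of cell cycle reads of all 22 cells, 0.719%. In NR, Hmgb3 was high in cell 4 at 2632 (next 559) and Hmgn2 in cell 5 at 1369 (next 315). Several of these flags come from the same cell, so they are not independent of each other, and their source was not tested.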

How the results depend on the processing

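No paired analysis was possible because the labels give no replicate numbers, and the cell numbers used here only name cells. The count of members higher in T-type versus S-type went from 4 to 1 with medians over cells, 2 with means of log2 values and 1 without T-type cells 1 and 2 (chosen after the values were seen), and the count of lower ones from 2 to 1 at 4-fold and 1 without S-type cells 1 and 2. In T-type versus NR, 6 higher became 3 with CPM of pooled reads, mean CPM, 4-fold and without T-type cells 1 and 2. In S-type versus NR, 3 higher became 1 at 4-fold and 0 without S-type cells 1 and 2, and 1 lower became 0 with means of log2 values and at 4-fold. In M-type versus NR, 0 higher became 1 with medians, 2 with means of log2 values and 1 at 1.5-fold. With CPM of pooled reads the median over all genes moved from -0.09 to -0.56 in T-type versus S-type and from -0.07 to -0.54 in T-type versus NR, with 16.4% of genes higher and 40.3% lower in the former.

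Leaving out 1 cell at a time, higher members numbered 2 to 5 in T-type versus S-type, 3 to 8 in T-type versus NR, 1 to 5 in S-type versus NR and 0 to 2 in M-type versus NR, and lower ones 1 to 3, 1 in every case, 0 to 1 and 1 to 4. The median over members ran from -0.01 to 1.06, 0.95 to 2.13, 0.32 to 1.12 and -0.27 to 0.45. Cbx3 in T-type versus S-type, 1.01, changed sign to -0.18 with CPM of pooled reads, -0.45 with medians, -0.56 with means of log2 values and -0.12 without T-type cell 2, and in T-type versus NR to -0.36 with medians. Hmgb3 in T-type versus NR became -0.025 with means of log2 values and Hmgb2 -0.10 without T-type cell 2. Over all single cells left out, Cbx3 in T-type versus S-type ran from -0.12 to 1.72 and Hmgb2 in T-type versus NR from -0.10 to 3.09. Without S-type cells 1 and 2, Hmgn2 in T-type versus S-type became 0.88, and Hmgb2, Hmgn2 and Cbx3 in S-type versus NR became -0.95, -0.19 and -0.47. The cause was not tested. Cbx1 stayed at least 2-fold lower in T-type versus S-type, T-type versus NR and M-type versus NR under every alternative run, and Hmgb1 at least 2-fold higher in T-type under every one except without T-type cell 2 alone. Each median share within a family moved by less than 1 SD over cells without division by length and without any 1 cell, but that SD is wide, and without division by length the HMGB gene with the largest median share changed from Hmgb3 (49.1%) to Hmgb1 (44.3%).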
